A study of Mus musculus with 18 samples.

Results

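The 10 cathepsin genes Ctsa, Ctsb, Ctsc, Ctsd, Ctsf, Ctsh, Ctsl, Ctso, Ctss and Ctsz were followed in single nuclei of the mouse hippocampus (Hip) and prefrontal cortex (PFC). They were chosen by gene symbol among the 30905 genes of the deposited matrices, a rule that uses no measured value, and the family itself was taken up with earlier results of these data known. Nuclei came from 9 male Kun Ming mice aged 8 weeks. Of these, 3 were germ-free (GF), raised with no microbiota, 3 were specific pathogen-free (SPF) mice with an ordinary gut microbiota, and 3 were colonized germ-free (CGF), GF animals that had been co-housed with SPF mice for 4 weeks. Each mouse gave 1 droplet library per region, 18 in all, and the mouse was the replicate in every comparison. The RNA of a nucleus was counted, not that of the whole cell.

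Cathepsins are proteases that degrade proteins, most of them in the acid interior of the lysosome. Ctsa is a serine carboxypeptidase that also protects other lysosomal enzymes from degradation, Ctsd is an aspartic protease, and the other members are cysteine proteases. Among these, Ctsb, Ctsl and Ctsf cut within protein chains, Ctsc and Ctsh trim residues from the amino end, Ctsz trims the carboxyl end, Ctso is a little-studied member, and Ctss, which stays active at neutral pH, processes the invariant chain of MHC class II in myeloid cells. In brain, microglia are known for high lysosomal activity, and several cathepsins are used as markers of their activated states.

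Sequences around annotated transcription starts were looked up with the results by group known. RefSeq windows of 300 bases on GRCm38.p6, 250 before and 50 after a start, were held for 8 of the 10 members, all but Ctsb and Ctsh. The motif CACGTG, the core of the E-box bound by the lysosomal gene regulators Tfeb and Tfe3, was in a window of 4 members (Ctsa, Ctsd, Ctsf and Ctsl) and in 7.15% of all 32851 windows. The motif GAGGAAGT, an ETS site of the kind bound by the myeloid factor PU.1 and read on the other strand as ACTTCCTC, was in a window of 2 members (Ctsc and Ctss) and in 3.2% of all windows. Both strands were searched, and a match is a stretch of letters and not a measured binding site. Whether the motifs bear on the values by type or group was not tested. The stretches with the motif are given for the members whose values follow, each 5′ to 3′ on the strand of the gene, with the motif in capitals. That of Ctsa lies at an alternative start at chr2:164833731-164833783 (plus strand), that of Ctsf at chr19:4855056-4855121 (plus), that of Ctsl at chr13:64370721-64370770 (minus), that of Ctsc at chr7:88277904-88277971 (plus) and that of Ctss at chr3:95526754-95526791 (plus). Those of Ctsa and Ctsl lie wholly within the gene spans given below.
Ctsa: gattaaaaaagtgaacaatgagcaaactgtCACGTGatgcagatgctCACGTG
Ctsf: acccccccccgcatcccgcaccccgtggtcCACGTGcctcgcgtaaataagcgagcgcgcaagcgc
Ctsl: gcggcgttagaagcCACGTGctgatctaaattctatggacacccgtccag
Ctsc: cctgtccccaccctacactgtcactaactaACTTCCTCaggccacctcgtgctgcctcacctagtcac
Ctss: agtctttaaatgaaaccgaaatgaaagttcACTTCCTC

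The genes lie apart on 7 chromosomes (GRCm38, GENCODE vM21): Ctsa at chr2:164832873-164841032 and Ctsz at chr2:174427493-174439039, Ctss at chr3:95526786-95556403 and Ctso at chr3:81932601-81956725, Ctsc at chr7:88278085-88310888 and Ctsd at chr7:142375911-142388038, Ctsh at chr9:90054152-90076089, Ctsl at chr13:64359337-64370890, Ctsb at chr14:63122462-63145923 and Ctsf at chr19:4855130-4860918. Genes on the opposite strand overlap Ctsa (Neurl2 and Pltp), Ctsb (Fdft1), Ctsc (Gm26522), Ctsl (Gm47123) and Ctsz (Nelfcd, by 10 bases). Whether the counting used the strand is not given in the sources used here, so reads in these overlaps are uncertain.

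The matrices held 139924 nuclei, of which 138000 passed the study's limits on genes and mitochondrial UMIs (unique molecular identifiers, each a counted molecule). A library held 49067853 to 63217083 UMIs in Hip. In PFC it held 59126586 to 71463928 in GF mice, 20336250 to 26949210 in SPF mice and 22213863 to 26151503 in CGF mice, and the mitochondrial share was 0.359% to 0.594%, 1.66% to 3.22% and 1.28% to 2.24%. In Hip the mitochondrial share went the other way, at 0.645% to 1.1% in GF mice, 0.128% to 0.471% in SPF mice and 0.077% to 0.218% in CGF mice. GF mice therefore cannot be told apart from deeper libraries with fewer mitochondrial UMIs in PFC, nor from libraries with more mitochondrial UMIs in Hip. Any pair of libraries shared 6 to 29 cell barcodes, at most 0.362% of the smaller library. The cell types were gated on marker genes that included no cathepsin, which gave 2243 microglial nuclei in Hip and 2049 in PFC. The median UMIs of a microglial nucleus were 1542.5 to 2281 in Hip libraries, and in PFC 1505.5 to 1713 for GF mice, 668 to 729 for SPF mice and 675.5 to 811.5 for CGF mice. The 10 members together gave 4548 to 12507 UMIs per library.

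Over the 3 groups together, microglia held higher levels of 7 cathepsins than the mean of the 5 other major types (astrocytes, oligodendrocytes, their precursors (OPC), excitatory neurons and interneurons), and these were the same 7 in both regions. In PFC the microglial level of Ctsb differed widely between groups, as given below. The largest differences were those of Ctsh, Ctss and Ctsc. Levels are counts per 1000000 UMIs of the genes in the fit (CPM), scaled by edgeR's trimmed mean of M-values (TMM). In this fit a level can be compared between cell types but not between genes, and levels are given as mean ± SD over the 9 libraries of a region. The levels by group further below come from a separate fit of each type, so they can be compared between groups but not between types. Of the 9 members that passed the filter on low counts, 7 were higher in microglia at a Benjamini-Hochberg adjusted p under 0.05 in edgeR, against 27.9% of all genes tested in Hip and 21.5% in PFC. Ctsd did not pass the filter.

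Ctss, the protease of the invariant chain, was at 335 ± 137 CPM in Hip microglia and 372 ± 157 in PFC microglia (n = 9 each). The next type in the fit was at 11.9 ± 4.83 CPM in Hip (endothelial cells) and 12.9 ± 6.25 in PFC (astrocytes). Border macrophages and choroid plexus had too few nuclei per library for this fit and are given below as pooled values. Its log2 difference from the mean of the other major types was 5.90 ± 0.09 (SE, adjusted p = 3.6e-74) in Hip and 5.72 in PFC. Ctsh, an aminopeptidase, differed by 5.96 ± 0.21 in Hip and 6.58 in PFC. The PFC value is raised by OPC, which held 0 UMIs of Ctsh there. Microglia differed from OPC by 10.99 and from the other major types of PFC by 4.57 (astrocytes) to 6.46 (excitatory neurons), so Ctsh and Ctss are not ranked in PFC. Ctsh was not confined to microglia: endothelial cells held 81.0 ± 45.0 CPM in Hip and 73.5 ± 37.2 in PFC beside 70.1 ± 23 and 63.0 ± 37.6 in microglia, and these neighbours did not differ beyond their spread (adjusted p = 0.817 and 0.543). Ctsc, the dipeptidyl peptidase that activates granule proteases of immune cells, was at 70.7 ± 12.1 CPM in Hip microglia and 31.6 ± 8.12 in endothelial cells. Endothelial cells were next among the fitted types, lower by 1.20 ± 0.20 on the log2 scale (adjusted p = 1.29e-07). In PFC the same pair was at 45.1 ± 23.2 and 42.7 ± 15.5 CPM and did not differ beyond its spread (adjusted p = 0.704).

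The other 4 members that were higher in microglia were spread more widely. Ctsz, the carboxypeptidase, was higher in microglia by 2.42 in Hip and 2.87 in PFC on the log2 scale, Ctsa by 1.33 and 1.66, Ctsb by 0.80 and 0.63, and Ctsf by 0.70 and 0.82. Ctsb was at 146 ± 28.2 CPM in Hip microglia and at 62.8 ± 11.5 in excitatory neurons, the lowest of the types fitted there. Ctsf did not differ between microglia and astrocytes beyond its spread in either region (Hip 31 ± 16.6 and 32.7 ± 12.2 CPM, adjusted p = 0.601, PFC 33.0 ± 15.9 and 28.7 ± 14.7, adjusted p = 0.844).

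Ctsl and Ctso were highest outside microglia. Ctsl, an endopeptidase of the lysosome, was highest in endothelial cells, at 131 ± 56.7 CPM in Hip and 99.7 ± 78.8 in PFC. Astrocytes followed at 89.7 ± 61.7 and 78.1 ± 55.9, which was lower than endothelial cells beyond the spread in Hip (adjusted p = 3.92e-05) and not in PFC (adjusted p = 0.0561). Ctso was highest in ependymal cells (60.0 ± 26.7 CPM) and astrocytes (55.8 ± 16.5) of Hip, which did not differ from each other (adjusted p = 0.306), and in astrocytes of PFC (35.2 ± 19.8). The latter did not differ from endothelial cells of PFC, the next type (27 ± 7.49, adjusted p = 0.153). Microglia held 18.9 ± 7.82 and 15.1 ± 7.95 CPM of Ctso, and the difference of Ctsl and of Ctso from the mean of the other major types (log2 0.18 and 0.27 in Hip, 0.24 and 0.52 in PFC) was not called.

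**Figure D1:**
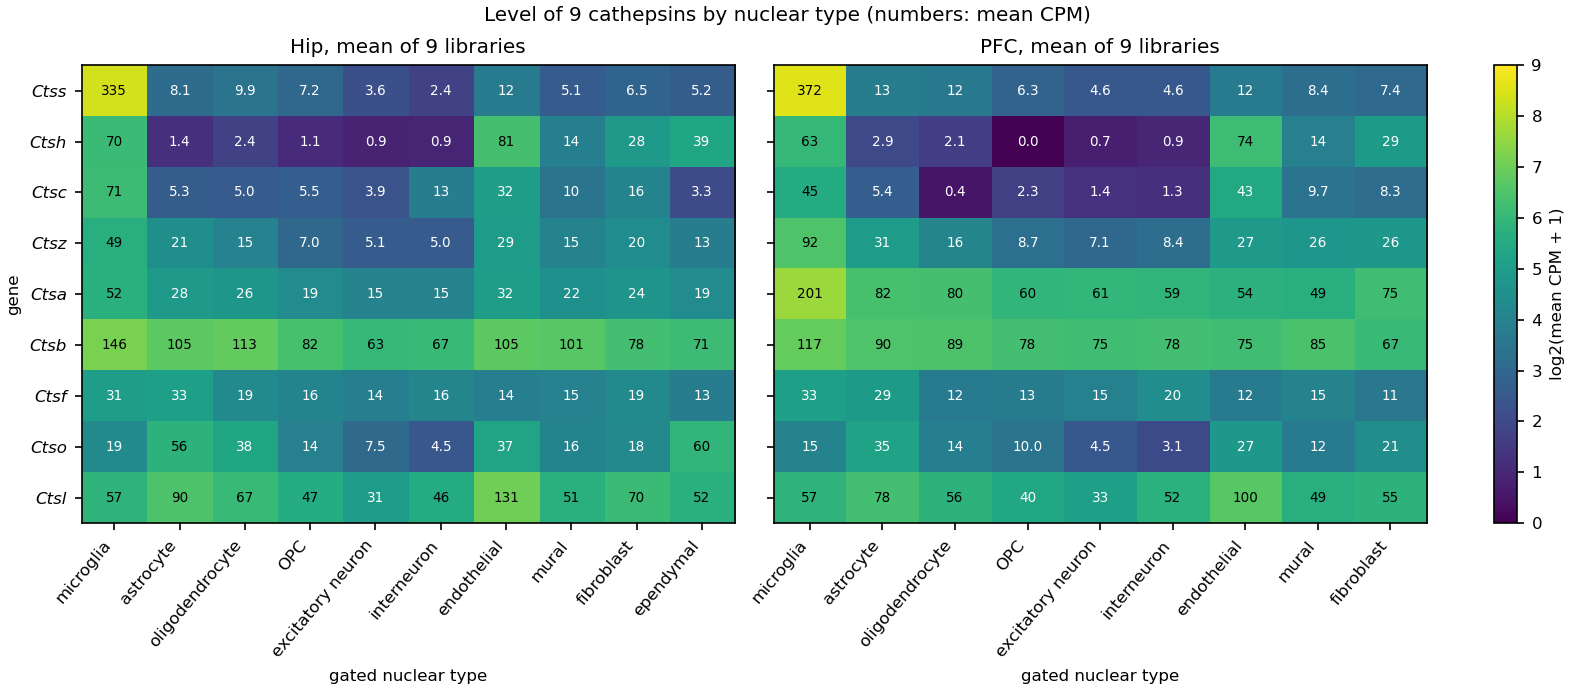
Mean CPM over the 9 libraries of a region (numbers in the cells, with colour as log2 of the mean CPM + 1) for the 9 cathepsins other than Ctsd, in rows, and the gated cell types of Hip and PFC that entered the fit, in columns. Ctss stood at 335 CPM in Hip microglia with every other fitted type at or under 11.9, Ctsh stood at 81.0 in endothelial cells and 70.1 in microglia, and Ctsl and Ctso peaked outside microglia.

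Neurons were at the other end. All 9 tested members were lower in excitatory neurons of Hip than in the mean of the other major types, where 41.6% of all genes tested were lower, and 8 of 9 were lower in PFC, where 35.7% were. That mean includes microglia, so these calls are not independent of those of microglia. Ctsh in Hip was at 0.869 CPM in excitatory neurons, 0.897 in interneurons, 1.08 in OPC and 1.37 in astrocytes, with no call between neighbours in this order. In interneurons, 8 were lower in Hip and 5 in PFC, where 37.7% and 31.1% of all genes were. Ctsc was higher in Hip interneurons (log2 difference 0.62 ± 0.14) and lower in those of PFC (-1.45 ± 0.36), with 12.9 ± 5.01 CPM there, 3.88 ± 1.43 in Hip excitatory neurons and 1.30 ± 1.31 in PFC interneurons.

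RNA of lysed cells is counted in other droplets, so a low level in neurons needs a yardstick. The complement genes C1qa, C1qb and C1qc, made by microglia and not used in the gate, were in excitatory neurons at 2.34% to 2.54% of their microglial mean in Hip and at 1.41% to 2.77% in PFC. Ctss was at 1.08% and 1.24% and Ctsh at 1.24% and 1.09%, at or under that yardstick, so no expression in neurons is read from them. Ctsc was at 5.49% and 3.19% and Ctsz at 10.3% and 7.72%, but their ranges over libraries overlapped those of the complement genes. The ranges were not compared within each library. Ctsc ranged from 3.67% to 12.6% in Hip and 1.98% to 10.7% in PFC and Ctsz from 7.11% to 24.3% and 4.13% to 13.2%, beside up to 7.31% for C1qb in Hip and 6.34% for C1qa in PFC. Ctsa, Ctsb, Ctsf, Ctsl and Ctso were at 29.3% to 63.8%.

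Ctsd was nearly absent from these counts. It had 5 UMIs in all Hip microglia, 2, 1 and 2 in the GF mice and 0 in the other 6, and 14 UMIs in PFC microglia. It passed no filter and was not tested. A gene on the same strand, AC034099.1, overlaps 6757 of its 12128 bases and shares 808 of its 2351 exonic bases (34.4%). Reads in shared exons cannot be given to either gene by the usual counting rule, and AC034099.1 itself had few UMIs (3.17 ± 2.28 CPM in Hip microglia). The part of this overlap in the low counts was not tested. The deposited counts thus give no usable level for Ctsd.

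Border macrophages, the macrophages of meninges and vessels, were gated apart from microglia by markers such as Mrc1. They were 111 nuclei in Hip and 94 in PFC, and are given as pooled CPM, out of all their UMIs, with 95% exact Poisson intervals, which cover counting error only. Ctsc was at 447 (379 to 522) in Hip and 236 (177 to 308) in PFC, and Ctsb at 395 (332 to 467) and 454 (370 to 551). The microglial values on the same pooled scale were 78.9 and 62.4 for Ctsc and 164 and 173 for Ctsb. Ctss went the other way, at 196 (153 to 248) and 214 (157 to 283) in border macrophages beside 370 and 502 in microglia. Pooling weights each library by its depth, and GF libraries gave 1248 of the 1576 microglial UMIs of Ctss in PFC. By group, Ctss in border macrophages and microglia of Hip was at 259 and 557 pooled CPM in GF, 302 and 325 in SPF and 110 and 247 in CGF mice, and in PFC at 262 and 614 in GF mice, with 2 and 1 UMIs in border macrophages of SPF and CGF mice. The choroid plexus of Hip (882 nuclei) had 42.3 (36.6 to 48.7) for Ctsc and 69.0 (61.7 to 77.1) for Ctsl.

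For each of the 9 members with a profile, the genes with the most similar levels were found over 19 points, the 10 types of Hip and 9 of PFC, among 13726 genes. These are descriptions, since the types of a region come from the same libraries. Ctss was most like Csf1r (Pearson's r = 0.982) and Fcrls (0.976), both markers of the gate itself. Ctsa was most like Tcirg1 (0.950), which encodes a subunit of the vacuolar proton pump, Ctsz most like Grn (0.928), the gene of progranulin, and Ctsh most like Tgfbr2 (0.961). Ctsb was most like Pgam1 (0.928), Ctsc like H2-T24 (0.906), Ctsf like Arxes2 (0.895), Ctsl like Hist1h1c (0.906) and Ctso like Mgst1 (0.886). Between the members themselves, r was highest for Ctss with Ctsz (0.84) and lowest for Ctsa with Ctso (-0.08).

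The absence of a microbiota was examined first in microglia of Hip, by comparing GF with SPF mice. Ctsz, Ctsf, Ctsa, Ctsl and Ctss rose in GF microglia, by 1.70- to 2.94-fold, and Ctsb, Ctsc, Ctsh and Ctso did not pass the test. Ctsz was at 93.9, 106 and 103 CPM in the GF mice and at 37.4, 22.3 and 41.9 in the SPF mice, where the GF libraries held 45 to 56 UMIs and the SPF libraries 14 to 30. Every GF mouse was above every SPF mouse, and the log2 fold change was 1.56 ± 0.27 (SE, n = 3 per group, adjusted p = 0.00122, edgeR). Ctsf was at 62.6, 72.2 and 42.2 CPM in GF and 21.8, 23.9 and 26.6 in SPF mice, a log2 fold change of 1.26 ± 0.29 (adjusted p = 0.00621).

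Ctsa, the serine carboxypeptidase, was at 75.1, 92.5 and 89.9 CPM in GF and 40.5, 55.7 and 33.6 in SPF mice of Hip. Ctsl was at 89.7, 122 and 99.1 CPM in GF and 49.9, 35.0 and 69.9 in SPF mice. Ctss was at 465, 715 and 545 CPM in GF and 396, 361 and 257 in SPF mice. For each of these genes every GF mouse was above every SPF mouse. The log2 fold changes were 0.99 ± 0.23 for Ctsa (adjusted p = 0.00642), 0.98 ± 0.23 for Ctsl (adjusted p = 0.0081) and 0.77 ± 0.18 for Ctss (adjusted p = 0.00878). The gap of Ctss was narrower than that of the others for its size, since SPF mouse 30 at 396 CPM came near to GF mouse 5 at 465.

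Of the 9 members tested in Hip microglia, 5 were higher and 0 lower in GF mice, against 10.3% higher and 6.44% lower among the 9273 genes tested. Among the 4 that were not called, the log2 fold change was 0.50 ± 0.22 for Ctsh (adjusted p = 0.13), 0.24 ± 0.18 for Ctsb (adjusted p = 0.375), 0.16 ± 0.23 for Ctsc (adjusted p = 0.68) and -0.44 ± 0.43 for Ctso (adjusted p = 0.516), and their groups overlapped. Ctsh was near the threshold: it was called without SPF mouse 30, which was at 106 CPM beside 66.8 and 58.7 in the other SPF mice (0.79, adjusted p = 0.0301), and with a stricter gate on all mice (0.69, adjusted p = 0.0295). Once a trend with the length and GC content of genes had been taken out of each sum, 3 members were called in place of 5, with Ctsa at 0.63 (adjusted p = 0.0943) and Ctsf at 0.82 (adjusted p = 0.0686) no longer past the threshold. The share of all genes called in that setting is not given here.

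In microglia of PFC, Ctsl, Ctsb, Ctss and Ctsh rose in GF against SPF mice and Ctsa fell. Ctsl was at 139, 112 and 141 CPM in GF and 30.1, 29.0 and 4.80 in SPF mice, where the SPF libraries held 4, 4 and 1 UMIs. Its log2 fold change of 2.77 ± 0.40 (adjusted p = 1.9e-05) therefore rests on 9 UMIs on the SPF side, and was 2.14 (adjusted p = 0.000752) without SPF mouse 32, the mouse at 4.80 CPM, and up to 3.14 with another mouse left out. Ctsb, a protease with endopeptidase and carboxypeptidase activity, was at 219, 287 and 227 CPM in GF and 52.7, 86.9 and 110 in SPF mice, a log2 fold change of 1.49 ± 0.26 (adjusted p = 0.000118). Ctss was at 697, 669 and 626 CPM in GF and 293, 319 and 326 in SPF mice, and its log2 fold change was 1.08 ± 0.19 (adjusted p = 0.000151). The groups did not overlap for any of these genes.

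Ctsa went down: it was at 116, 101 and 113 CPM in the GF mice and at 354, 333 and 254 in the SPF mice of PFC. All SPF mice were above all GF mice, the reverse of Hip, and the level fell by 1.49 on the log2 scale (SE 0.21, adjusted p = 1.14e-05). Ctsh was at 128, 108 and 125 CPM in GF and 67.7, 101 and 19.2 in SPF mice, with a log2 fold change of 1.06 ± 0.37 (adjusted p = 0.0281). SPF mice 31 and 32 were far apart for Ctsh, and the call was lost without GF mouse 7 (1.05, adjusted p = 0.0512), SPF mouse 30 (1.17, adjusted p = 0.052) or SPF mouse 32 (0.51, adjusted p = 0.298). With all mice it was also lost in DESeq2 (1.04, adjusted p = 0.076) and with the length and GC trend removed (0.88, adjusted p = 0.053).

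Of the 7 members tested in PFC microglia, 4 were higher and 1 lower in GF mice, against 17.2% higher and 18.2% lower among 6215 genes. Ctsc was at 0.85 ± 0.34 (adjusted p = 0.0554) with groups that did not overlap (61.4 to 97.5 CPM in GF and 43.2 to 52.7 in SPF mice). It was called with scaling by library totals (0.97, adjusted p = 0.0297), with the stricter gate (0.98, adjusted p = 0.0207), without GF mouse 6 (1.03, adjusted p = 0.0247) and without CGF mouse 19 (0.87, adjusted p = 0.0469). Ctsz was at 0.42 ± 0.33 (adjusted p = 0.337) with groups that overlapped. Ctsd, Ctsf and Ctso had too few UMIs in PFC to pass the filter. The SPF libraries of PFC held 148887 to 245964 microglial UMIs each, and the GF libraries 590843 to 846417.

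**Figure D2:**
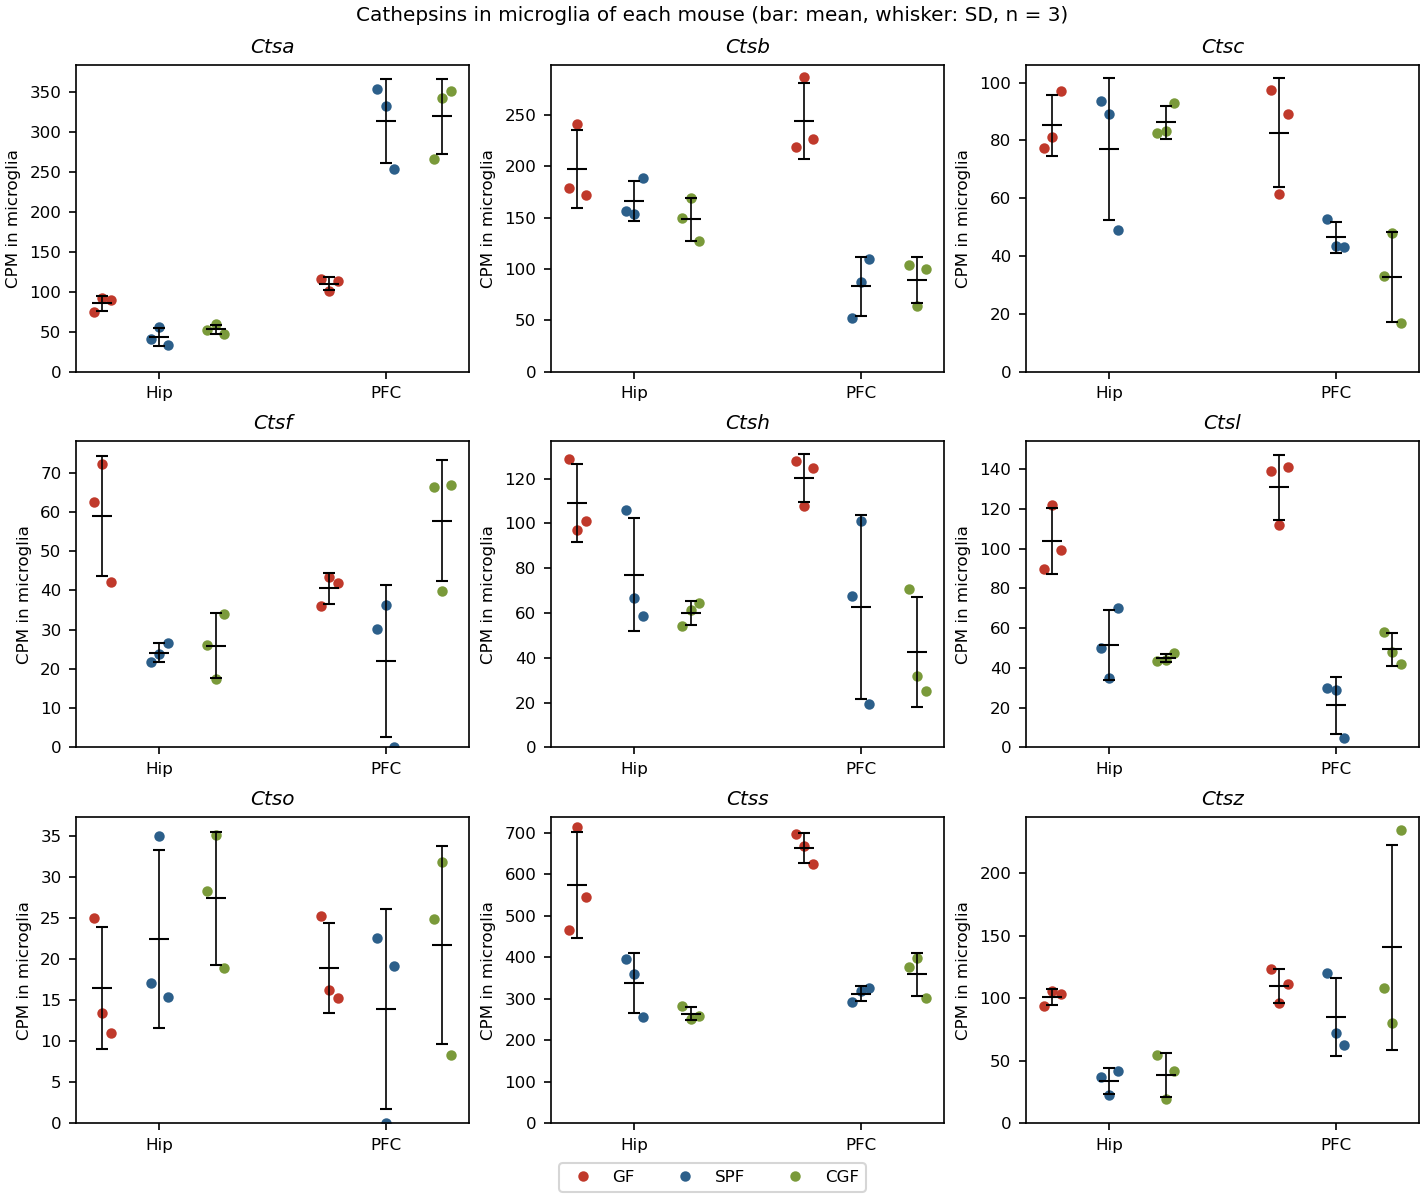
CPM of 9 cathepsins in microglia, 1 panel per gene with a linear axis from 0, Hip on the left and PFC on the right of each panel, 1 point per mouse coloured by group, with the group mean as a bar and the SD as whiskers (n = 3). The 3 GF mice of Ctsl sit at 89.7 to 122 CPM in Hip and 112 to 141 in PFC, above every SPF and CGF mouse, while Ctsa is above them in Hip and below them in PFC.

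Markers of other cells were counted inside the microglial gate as well. In Hip the summed CPM of the 8 border macrophage markers were 155 to 204 in GF mice, 66.9 to 90.6 in SPF mice and 93.2 to 110 in CGF mice, 1 of these markers could be tested, and it was higher in GF mice. In PFC the same sum was 166 to 216, 147 to 222 and 266 to 316. Astrocyte markers summed to 1827 to 2223 CPM in GF and 2737 to 3299 in SPF microglia of Hip, and oligodendrocyte markers to 362 to 637 and 747 to 1222. Of the 4 erythrocyte genes, 2 could be tested in Hip and both were higher in GF mice (136 to 277 and 30.2 to 71.0 CPM). In PFC the erythrocyte genes summed to 148 to 374 CPM in GF mice, 0 to 44.7 in SPF mice and 26.6 to 478 in CGF mice, while astrocyte markers (1719 to 2341 CPM in GF and 1987 to 2794 in SPF mice) and oligodendrocyte markers (300 to 389 and 237 to 457) overlapped. The microglial markers of the gate themselves summed in PFC to 11551 to 13713 CPM in GF mice, 8326 to 8920 in SPF mice and 7547 to 8678 in CGF mice, with 8 of 21 higher and 1 lower against SPF mice, and to 10937 to 12784, 9190 to 12700 and 10622 to 11090 in Hip, with 8 of 22 higher and 1 lower. Of all genes tested in microglia, 17.2% were higher and 18.2% lower in PFC, and 10.3% and 6.44% in Hip. The sum of C1qa, C1qb and C1qc was 946 to 1040 CPM in GF and 150 to 222 in SPF mice of Hip, and 975 to 1211 and 437 to 484 in PFC. The part of these marker and complement values in the cathepsin values was not tested.

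Colonization was examined by comparing GF with CGF mice, with the same GF libraries as before, so that the values of both comparisons are not independent. In Hip microglia, 6 of 9 members were higher in GF than in CGF mice, against 12.5% of all genes, and 0 were lower, against 10%. The log2 fold changes were 1.38 ± 0.28 for Ctsz, 1.19 ± 0.25 for Ctsl, 1.15 ± 0.30 for Ctsf, 1.12 ± 0.19 for Ctss, 0.86 ± 0.24 for Ctsh and 0.70 ± 0.23 for Ctsa (adjusted p = 0.000539 for Ctss to 0.0355 for Ctsa). Ctss was at 283, 252 and 258 CPM in the CGF mice and Ctsz at 54.3, 19.7 and 41.7, all below the lowest GF mouse. Ctsa was no longer called without any 1 of GF mice 6 and 7 and CGF mice 17, 18 and 19 (0.62 to 0.78, adjusted p = 0.058 to 0.103), nor in DESeq2 (0.71, adjusted p = 0.127), without the filter (0.71, adjusted p = 0.0523) or in thinned libraries (0.62, adjusted p = 0.0985). Removing the trend with length and GC content took Ctsa to 0.20 (adjusted p = 0.648), Ctsf to 0.54 (adjusted p = 0.267) and Ctsh to 0.71 (adjusted p = 0.0628), none of them called. Ctsf was lost without CGF mouse 18 (0.93, adjusted p = 0.057), and Ctsh without CGF mouse 17 (0.79, adjusted p = 0.0619) or GF mouse 5 (0.72, adjusted p = 0.0717).

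In PFC microglia, 5 of 7 members were higher in GF than in CGF mice and 1 was lower, against 16.9% and 18.2% of all genes. Ctsb rose by 1.41 ± 0.25, Ctsl by 1.35 ± 0.32, Ctsc by 1.33 ± 0.37, Ctsh by 1.31 ± 0.38 and Ctss by 0.88 ± 0.19 on the log2 scale, and Ctsa fell by 1.51 (SE 0.21, adjusted p = 1.03e-05). The CGF mice were at 266, 343 and 351 CPM of Ctsa, all above the highest GF mouse at 116. Ctsl was at 58.1, 47.9 and 41.8 CPM in the CGF mice, below the lowest GF mouse at 112. The call of Ctsc was lost in thinned libraries (1.13, adjusted p = 0.058).

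Between CGF and SPF mice, edgeR called 0 members in microglia of either region, against 0.183% of all genes tested in Hip and 0.0161% in PFC. At an unadjusted p under 0.05 there were 0 of 9 members in Hip and 1 of 7 in PFC, where 9.05% and 5.68% of all genes were, and DESeq2 called 0 in both. In Hip the log2 fold changes of the 9 members lay between -0.35 (SE 0.24 for Ctsh and 0.19 for Ctss) and 0.29 ± 0.25 (Ctsa). In PFC they lay between -0.48 ± 0.48 (Ctsc) and 1.41 ± 0.53 (Ctsl). The latter had an unadjusted p of 0.0144 and an adjusted p of 0.721, and its groups did not overlap (41.8 to 58.1 CPM in CGF and 4.80 to 30.1 in SPF mice). Over the 6 major types, 0 of 44 pairs of a member and a type were called in Hip and 0 of 32 in PFC, where 0.249% and 0.183% of all such pairs were, with 6 and 8 at an unadjusted p under 0.05, as were 10.2% and 9.84% of all pairs. DESeq2 called 2 pairs in Hip, Ctso in astrocytes at 0.85 (adjusted p = 0.0494) and Ctss in excitatory neurons at -0.99 (adjusted p = 0.0279), and 0 in PFC. Ctsf, not tested in PFC microglia, was at 39.9 to 66.8 CPM in CGF and 0 to 36.2 in SPF mice there, on 29 and 9 UMIs.

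The comparison of GF with SPF mice was then made in each of the 6 major types. Over all types, 20 of 44 tested pairs were called in Hip, all higher in GF mice, against 32.4% of all pairs of a gene and a type. In PFC, 19 of 32 were called, 13 higher and 6 lower, against 48.9%. The 20 pairs in Hip became 11 with the trend on gene length and GC content removed, a setting for which the share of all pairs is not given here.

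Ctsl was higher in GF mice in every type tested. In Hip its log2 fold change was 1.99 ± 0.20 in interneurons, 1.78 ± 0.18 in astrocytes, 1.71 ± 0.21 in excitatory neurons, 1.35 ± 0.15 in oligodendrocytes, 1.03 ± 0.22 in OPC and 0.98 ± 0.23 in microglia. In astrocytes of Hip the GF mice lay at 128 to 195 CPM, the SPF mice at 39.0 to 54.8 and the CGF mice at 39.2 to 59.8. In excitatory neurons they lay at 36.7 to 54.3, 11.5 to 18.6 and 11.3 to 15.8. In each of the 6 types the GF mice were above all SPF and CGF mice. In PFC it was called in all 5 types tested, by 2.77 in microglia, 1.69 ± 0.20 in astrocytes, 1.41 ± 0.26 in oligodendrocytes, 0.96 ± 0.14 in interneurons and 0.88 ± 0.13 in excitatory neurons, again with groups that did not overlap. Against CGF mice the range was 1.09 to 2.02 in Hip and 0.89 to 1.93 in PFC, and no alternative processing or left-out mouse ended a call of Ctsl against SPF mice, although its size in PFC microglia moved without SPF mouse 32 as given above.

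Ctsa was called in opposite directions in Hip and PFC. In Hip it was higher in GF mice in 4 of 6 types, microglia (0.99), astrocytes (0.78 ± 0.23), interneurons (0.65 ± 0.19) and excitatory neurons (0.34 ± 0.09), and was at 0.37 ± 0.19 in oligodendrocytes (adjusted p = 0.152) and 0.14 ± 0.36 in OPC (adjusted p = 0.828). In PFC it was lower in 6 of 6, from -1.49 in microglia to -2.59 ± 0.12 in excitatory neurons. In the latter the GF mice were at 12.2 to 14.5 CPM, the SPF mice at 72.0 to 86.8 and the CGF mice at 57.6 to 71.5. The 4 calls of Hip all missed the threshold with the trend on gene length and GC content removed (0.63 in microglia, 0.35 in astrocytes, 0.28 in interneurons and 0.03 in excitatory neurons). Outside microglia they also rested on single mice. The call in astrocytes, where the groups overlapped, was lost without GF mouse 6 or 7 (0.70 each) or SPF mouse 30 (0.70) or 31 (0.63), that in excitatory neurons without GF mouse 6 (0.29) or SPF mouse 30 (0.26), and that in interneurons without GF mouse 7 (0.55) or SPF mouse 30 (0.60). The call in astrocytes was also lost with the stricter gate (0.82, adjusted p = 0.0758), and that in interneurons in DESeq2 (0.63, adjusted p = 0.0803) and in thinned libraries (0.58, adjusted p = 0.0644). The 6 falls in PFC held in every alternative, at -2.73 to -1.35.

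Ctsf and Ctsz followed Ctsl in part. Ctsf was higher in GF mice in 4 of 6 types of Hip, with 43.3 to 51.7 CPM in GF and 19.3 to 24.7 in SPF astrocytes (1.11 ± 0.19, adjusted p = 0.000183), and in astrocytes (1.28 ± 0.37) and interneurons (0.82 ± 0.29) of PFC. The call in Hip interneurons (0.82 ± 0.23) was lost without GF mouse 6 (0.69, adjusted p = 0.0591). The PFC calls were lost without SPF mouse 32 (0.89, adjusted p = 0.0817, and 0.63, adjusted p = 0.135), and that in interneurons also without GF mouse 6 (0.72), GF mouse 7 (0.79) or SPF mouse 31 (0.86), in thinned libraries (0.72, adjusted p = 0.0743) and with library totals (0.75, adjusted p = 0.0531). Removing the length and GC trend ended the Hip calls of Ctsf in interneurons (0.33, adjusted p = 0.313) and excitatory neurons (0.20, adjusted p = 0.127). Ctsz was higher in 4 of 5 types of Hip, with 31.3 to 42.4 CPM in GF and 11.3 to 21.5 in SPF astrocytes (1.27 ± 0.26, adjusted p = 0.00103), and did not pass the test in the 4 types tested in PFC (-0.25 to 0.64, unadjusted p = 0.0536 to 0.429). Its calls in oligodendrocytes (0.92 ± 0.28) and excitatory neurons (0.71 ± 0.20) of Hip were lost without GF mouse 6 (0.65 and 0.64), SPF mouse 30 (0.93 and 0.61) or SPF mouse 31 (0.74 and 0.60), and that in excitatory neurons also without GF mouse 7 (0.66). With the length and GC trend removed these calls were lost too (0.71 and 0.49, adjusted p = 0.0719 and 0.053), and DESeq2 did not make the former (0.91, adjusted p = 0.0624). In excitatory neurons the range of Ctsz over libraries overlapped that of the yardstick of free RNA, with a higher mean. C1qa was higher in GF mice there too (0.82 ± 0.28, adjusted p = 0.0365). C1qb (0.62 ± 0.34, adjusted p = 0.166) and C1qc (0.28 ± 0.24, adjusted p = 0.371) were not called there. The part of free RNA in the call of Ctsz in excitatory neurons was not tested.

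The remaining calls outside microglia were few. Ctsb rose in interneurons of Hip (0.42 ± 0.15), a call lost without GF mouse 6 (0.36), GF mouse 7 (0.38), SPF mouse 30 (0.29) or SPF mouse 31 (0.45) and in DESeq2 (0.40), thinned libraries (0.38), the stricter gate (0.34) and with the length and GC trend removed (0.43), and in astrocytes of PFC (0.70 ± 0.20), a call lost in thinned libraries (0.57, adjusted p = 0.0523). Ctso rose in astrocytes of PFC (1.58 ± 0.31, 36.8 to 64.4 CPM in GF and 10.9 to 23.5 in SPF mice). Ctsh rose in excitatory neurons of PFC by 1.89 ± 0.45, at 0.743 to 1.21 CPM in GF and 0.0993 to 0.510 in SPF mice, levels at the yardstick of free RNA given above. In the same type C1qa fell (-0.53 ± 0.17), while C1qb (1.33 ± 0.20) and C1qc (0.89 ± 0.25) rose. The part of free RNA in this call of Ctsh was not tested. Among the types where it was tested, Ctss was called against SPF mice only in microglia.

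Against CGF mice, the calls over the 6 types were 25 of 44 in Hip, 23 higher and 2 lower in GF mice, where 34.7% of all pairs were called, and 20 of 32 in PFC, 14 higher and 6 lower, where 48.5% were. Both that were lower in Hip were of Ctso, in OPC (-1.58 ± 0.51) and excitatory neurons (-0.65 ± 0.24). Ctss was higher in GF than in CGF mice in astrocytes (1.62 ± 0.42), excitatory neurons (1.23 ± 0.28) and oligodendrocytes (1.06 ± 0.32) of Hip, at 9.30 to 16.7 CPM in GF and 2.76 to 5.98 in CGF astrocytes. C1qa moved in the same types by 2.10 ± 0.44, 1.45 ± 0.28 and 1.72 ± 0.38, and C1qb by 1.58 ± 0.41, 1.33 ± 0.35 and 1.84 ± 0.40. C1qc rose in excitatory neurons (0.98 ± 0.25) and was not called in oligodendrocytes (0.39 ± 0.44, adjusted p = 0.534). The part of free microglial RNA in these values of Ctss was not tested.

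**Figure D3:**
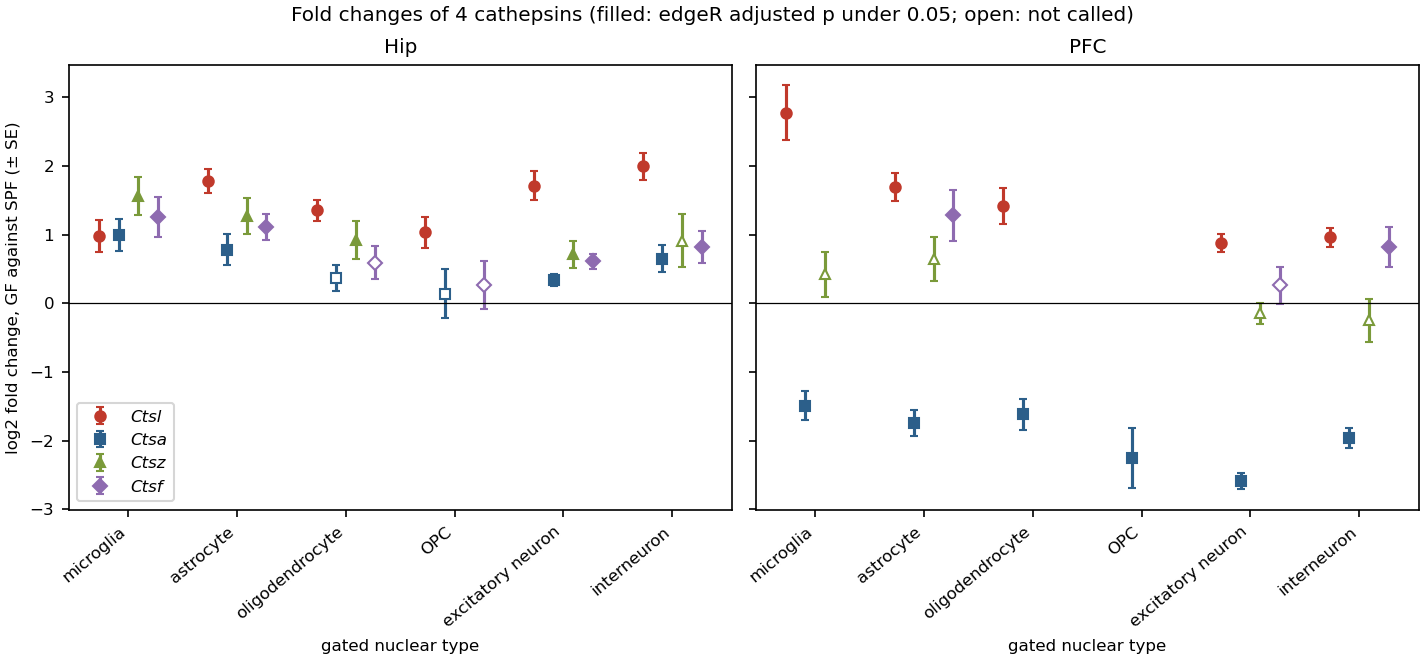
Log2 fold change of GF against SPF mice (points, with SE as bars) for Ctsl, Ctsa, Ctsz and Ctsf in each major cell type where the gene was tested (filled where the adjusted p is under 0.05), Hip in the left panel and PFC in the right. Ctsl is above 0 in every type of both regions, and Ctsa is at 0.14 to 0.99 in Hip, not called in oligodendrocytes and OPC, and below 0, at -2.59 to -1.49, in all 6 types of PFC.

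Both regions of a mouse were compared in a single fit of the 18 microglial sums, on a common scale. Over the 3 groups, 4 of 9 members differed, where 36.9% of all genes did. Ctsa and Ctsz were lower in Hip than in PFC, by 1.85 (SE 0.12, adjusted p = 1.43e-12) and 0.99 (SE 0.19, adjusted p = 0.000179) on the log2 scale. Ctsc and Ctsb were higher in Hip, by 0.79 ± 0.18 (adjusted p = 0.00112) and 0.51 ± 0.14 (adjusted p = 0.00404).

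The regions were then compared within each group. Within GF mice, edgeR called 0 of 9 members between the regions, 0 of them at an unadjusted p under 0.05, where 2.41% of all genes were called and 10.9% were under that unadjusted limit, and a GF library held 49067853 to 56240654 UMIs in Hip and 59126586 to 71463928 in PFC. Within SPF mice 4 were called, Ctsa (-2.78 ± 0.22), Ctsz (-1.20 ± 0.38), Ctsl (1.5 ± 0.45) and Ctsb (1.0 ± 0.26), and within CGF mice 4, Ctsa (-2.50 ± 0.22), Ctsz (-1.72), Ctsc (1.45 ± 0.36) and Ctsb (0.76 ± 0.26), where 24.6% of all genes were called in each. Ctsc was at 0.79 ± 0.34 in SPF mice and was not called (adjusted p = 0.0833). In each group the Hip and PFC libraries did not overlap in depth or in mitochondrial share. PFC was shallower with a higher share in SPF and CGF mice, and deeper with a lower share in GF mice, so within a group the region cannot be told apart from them.

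Ctsa showed the widest gap. In Hip and PFC it was at 85.5 ± 9.32 and 103 ± 6.86 CPM in GF mice, 41.8 ± 10.8 and 291 ± 46.9 in SPF mice, and 51.5 ± 5.68 and 297 ± 42.4 in CGF mice (n = 3 each), and it was higher in PFC in all 9 mice. Ctsb was at 197 ± 39.4 and 229 ± 36.3 CPM in GF mice and at 162 ± 20.2 and 77.6 ± 27.5 in SPF mice. Ctsl was at 103 ± 17 and 123 ± 14.9 CPM in GF mice and at 50.0 ± 17.4 and 19.7 ± 13.2 in SPF mice. For these genes the GF levels of the regions thus lay nearer to each other than the SPF levels did. Within GF mice, all 3 were still higher in PFC for Ctsa and Ctsb, and all 3 were higher in Hip for Ctsf. The other tested members were mixed among the GF mice.

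The difference between GF and SPF mice itself differed between the regions for 3 of 9 members, where 10.4% of all genes did. The log2 fold change in Hip minus that in PFC was 2.51 ± 0.29 for Ctsa (adjusted p = 1.03e-06), -1.22 ± 0.32 for Ctsb (adjusted p = 0.0127) and -1.76 ± 0.50 for Ctsl (adjusted p = 0.0226). Ctsl lost this call with the stricter gate (-1.32, adjusted p = 0.0703), with the length and GC trend removed (-1.52, adjusted p = 0.051), and without GF mouse 5 (-1.64, adjusted p = 0.0568), GF mouse 7 (-1.64, adjusted p = 0.0705) or SPF mouse 32 (-0.84, adjusted p = 0.332), and Ctsb without SPF mouse 30 (-1.03, adjusted p = 0.0786). Ctsz was at 1.17 ± 0.45 and missed the threshold (adjusted p = 0.099), as did Ctsc at -0.66 ± 0.41 (adjusted p = 0.319) and Ctss at -0.28 ± 0.26 (adjusted p = 0.535).

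**Figure D4:**
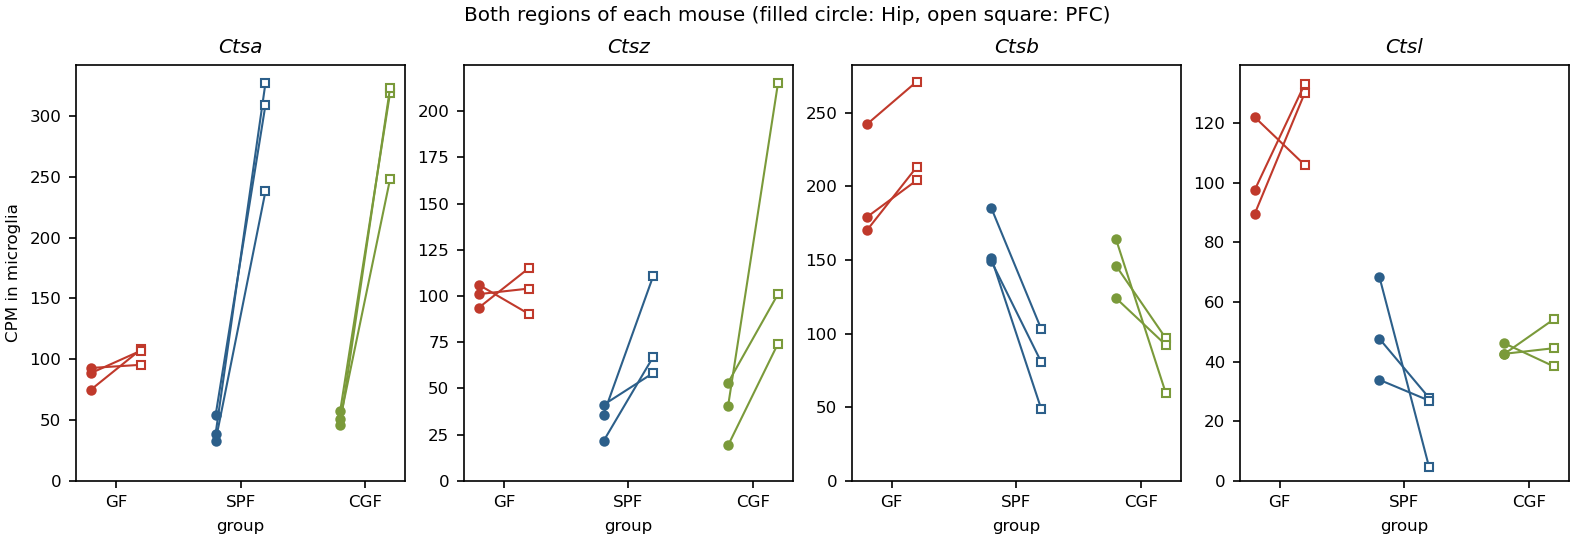
CPM of Ctsa, Ctsz, Ctsb and Ctsl in microglia on linear axes from 0, 1 line per mouse joining Hip (filled circle) to PFC (open square), arranged and coloured by group. For Ctsa the GF mice lie at 75.0 to 92.8 CPM in Hip and 95.4 to 108 in PFC, while the SPF mice lie at 32.9 to 53.9 in Hip and 238 to 327 in PFC.

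Other genes of the cathepsin system were counted in the same microglial fits, over 7 lists with 129 genes. The lists cover other cathepsins, inhibitors, lysosomal hydrolases, lysosomal membrane proteins, the vacuolar proton pump, sorting factors and regulators of lysosomal genes. In microglia against SPF mice, 14 of the 88 genes that passed the filter were higher and 2 lower in Hip, and 19 of 69 were higher and 6 lower in PFC, beside 10.3% and 6.44% of all genes in Hip and 17.2% and 18.2% in PFC. Against CGF mice 21 of 88 were higher and 1 lower in Hip, where 12.5% and 10% of all genes were, and 27 of 69 and 6 in PFC, where 16.9% and 18.2% were. Between CGF and SPF mice edgeR called 0 in both regions, with 11 of 88 and 2 of 69 at an unadjusted p under 0.05, beside the shares of all genes at that limit given above. Of the 14 other cathepsins, such as Ctsk and Ctsw, 0 passed the filter.

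Among the inhibitors, Cst3, which encodes cystatin C, a secreted inhibitor of cysteine cathepsins, rose in GF microglia of both regions. In Hip the GF mice lay at 3036 to 3866 CPM, the SPF mice at 843 to 935 and the CGF mice at 667 to 966, a log2 fold change against SPF mice of 1.94 ± 0.17 (adjusted p = 3.23e-06). In PFC it was at 3723 to 4826, 564 to 833 and 768 to 1258 CPM (2.53 ± 0.24, adjusted p = 6.3e-08). Of 5 inhibitors tested in Hip and 3 in PFC it was the only one called against SPF mice, and the medians of the list were -0.31 and 0.43 beside -0.04 and -0.01 over all genes. Lgmn encodes legumain, the protease that cuts single-chain cathepsins into their mature form. It was at 0.49 ± 0.17 in Hip (adjusted p = 0.0534) and rose by 0.85 ± 0.19 in PFC (adjusted p = 0.00146).

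Among 28 hydrolases and activators tested in Hip, 6 rose and 1 fell (median 0.14), and among 22 in PFC 6 rose and 2 fell (median 0.48). Of all genes tested, 10.3% rose and 6.44% fell in Hip, and 17.2% rose and 18.2% fell in PFC. The largest rise was that of Dnase2a, the lysosomal nuclease, in Hip (1.33 ± 0.30, 42.2 to 65.4 CPM in GF and 14.0 to 23.9 in SPF mice) and that of Gusb, which encodes beta-glucuronidase, in PFC (1.46 ± 0.31, 115 to 134 and 29.0 to 67.7). The largest fall was that of Ids, which encodes iduronate sulfatase, in Hip (-0.73 ± 0.24) and that of Dpp7, a dipeptidyl peptidase, in PFC. Dpp7 was at 5.09 to 12.6 CPM in GF mice, 57.6 to 97.8 in SPF mice and 41.8 to 54.0 in CGF mice, a fall by 3.23 on the log2 scale (SE 0.45, adjusted p = 1.24e-05). Like Ctsa, it was lower in every GF mouse of PFC than in any SPF or CGF mouse.

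Of the membrane proteins, 1 of 18 rose in Hip and 4 of 12 rose and 2 fell in PFC (medians -0.11 and 0.28). The counts of this list and the next stand beside the same shares of all genes, 10.3% and 6.44% in Hip and 17.2% and 18.2% in PFC. Cd68, a glycoprotein of macrophage lysosomes, was the rise in Hip (1.46 ± 0.36, 31.2 to 51.9 CPM in GF and 10.9 to 15.4 in SPF mice) and the largest fall in PFC (-1.29 ± 0.38, 23.5 to 30.6 and 48.0 to 113), a difference between regions of 2.77 ± 0.52 (adjusted p = 0.000678). Laptm4a had the largest rise in PFC (1.5 ± 0.32). Of the 17 subunits of the vacuolar proton pump tested, which acidifies lysosomes, 4 rose and 1 fell in Hip (median 0.15) and 6 rose and 1 fell in PFC (median 0.54). Atp6v0b rose by 1.25 ± 0.15 in Hip (755 to 807 CPM in GF and 305 to 363 in SPF mice) and Atp6v1f by 1.56 ± 0.29 in PFC, while Atp6v1a fell by 0.57 (SE 0.18) in Hip and rose by 0.97 ± 0.22 in PFC (difference -1.52 ± 0.29, adjusted p = 0.000789), and Atp6v0a2 fell by 0.98 (SE 0.22) in PFC.

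Sorting factors, which carry hydrolases to the lysosome, had 2 rises among 13 in Hip, led by Gnptg (1.20 ± 0.26), a subunit of the enzyme that makes the mannose 6-phosphate tag, and 1 rise and 1 fall among 9 in PFC, of Vps29 (1.66 ± 0.33), a retromer subunit, and Gga1 (-1.17 ± 0.30), a clathrin adaptor (medians 0.11 and 0.19). Of the regulators, 0 of 7 were called in Hip by edgeR, with 1 at an unadjusted p under 0.05 (31.5% of all genes), and 1 of 6 in PFC, Mitf (1.08 ± 0.21, 280 to 304 CPM in GF and 116 to 158 in SPF mice), with medians of 0.02 and 0.04. Tfeb and Tfe3 belong to this list. Among all genes, 10.3% rose and 6.44% fell in Hip and 17.2% rose and 18.2% fell in PFC, beside these counts of sorting factors and regulators.

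**Figure D5:**
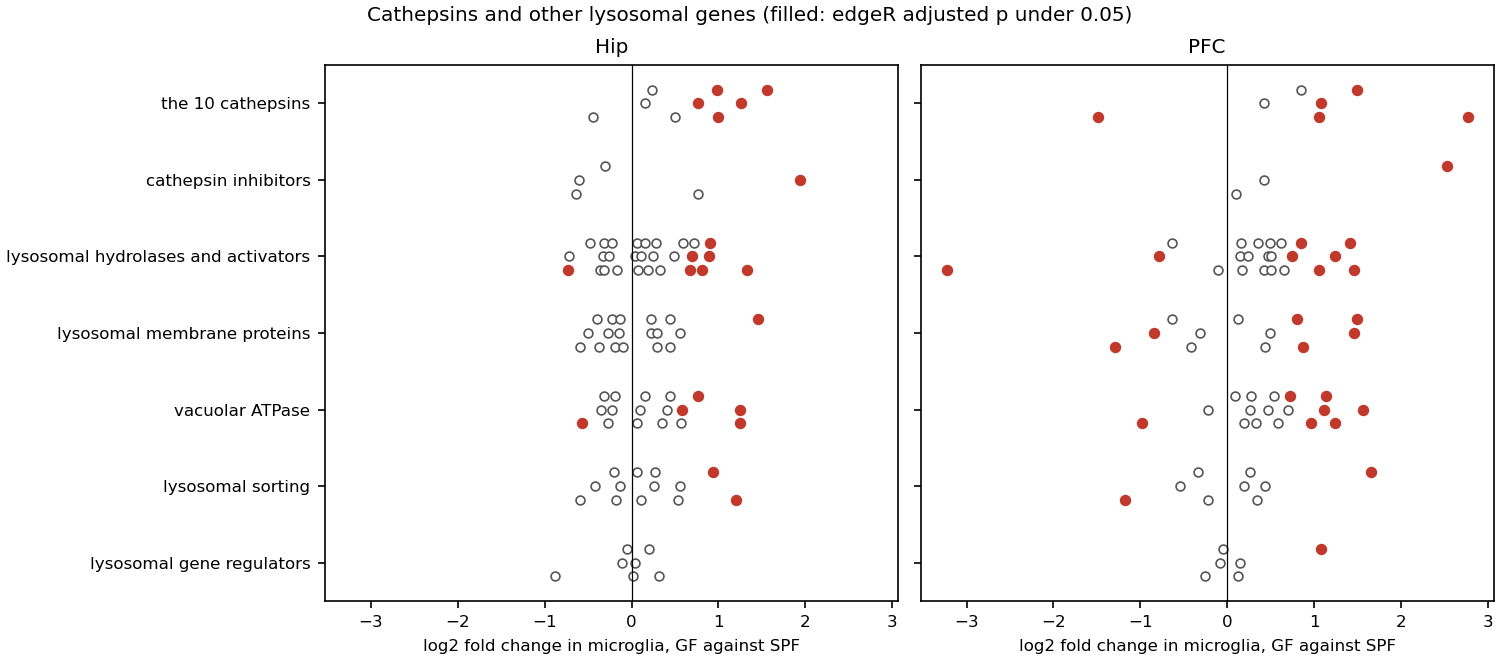
Log2 fold change of GF against SPF mice in microglia for the tested cathepsins and every tested gene of 6 lists (1 point per gene, red and filled where the adjusted p is under 0.05), Hip and PFC in separate panels. Cst3 lies at 1.94 in Hip and 2.53 in PFC, Ctsl at 2.77 in PFC, and Dpp7 farthest to the left at -3.23 in PFC.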

How the data were processed

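Nuclei of Hip and PFC were sequenced with droplet single-nucleus libraries. The deposited matrices hold UMI counts per gene and nucleus, made by the authors with Cell Ranger (3.1.0 per the file headers) on mm10 with Ensembl annotation, and not normalized. The labels also name CASAVA 1.8 and an earlier Cell Ranger. Whether intronic reads were counted is not given in the sources used here.

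Nuclei with at least 200 genes and at most 10% mitochondrial UMIs were kept (138000 of 139924, 49067853 to 63217083 UMIs per Hip library and 20336250 to 71463928 per PFC library). A nucleus was given 1 of 12 types when it held at least 3 UMIs of at least 2 markers of the type, a z of at least 3 and at least 8-fold the expected marker UMIs (3-fold for interneurons), among 149 marker genes. Nuclei whose second type reached more than 0.5 of the best z were left out (782 in Hip, 824 in PFC), which stood in for a doublet caller. Remaining nuclei with at least 0.5-fold of the excitatory and under 2-fold of the interneuron markers were called excitatory neurons. Near the limits of the gate lay 239 microglial nuclei (5.57%).

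Raw UMIs were summed per library and type and tested with the quasi-likelihood test of edgeR 4.0.16 (R 4.3.3, limma 3.58.1) after filterByExpr and TMM, with all 3 groups of a region in the fit and Benjamini-Hochberg adjustment over all genes tested (threshold 0.05). The SE is the log2 fold change divided by the root of F. Types were compared with the library as a block, and regions in a fit of all 18 microglial sums. Hip and PFC of a mouse come from the same animal, so mice pair the libraries of the region fit. The deviations of same-mouse libraries correlated at -0.0224 to 0.194 and those of other mice at -0.0761 to 0.000672 on average. Deviations were taken from group means of 3 mice, which ties these ranges to each other, so their contrast is no test of the pairing. Alternatives were DESeq2 1.42.0, DESeq2-type size factors, no filter, libraries thinned to the lowest mean UMIs per nucleus, removal of the trend on gene length and GC content, only the 2 groups compared, a stricter gate, each mouse left out, the mouse as a block, and, chosen after seeing the data, library totals. On simulated data, with changes of mixed size, the test recovered 50.5% of 200 changed genes in Hip microglia among 9273 and 51% in PFC among 6215. For the difference between regions it recovered 22.5% of 200 among 9942.

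Gene positions, lengths and GC content were taken from GENCODE vM21, which matched 30766 of the 30905 genes (99.6%), and promoter windows from RefSeq. The named genes were all members and, of each list, the called gene with the largest rise and fall, with Cst3 and Lgmn by name. Members, lists, markers and tests were chosen with earlier results of these data known. Tables were handled with Python 3.11.15, numpy 2.4.6, scipy 1.17.1, pandas 2.3.3 and matplotlib 3.10.9.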

Additional observations from a re-analysis of the deposited data

Results flagged for a closer look

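The log2 fold change of GF against SPF mice in microglia differed between Hip and PFC, by the interaction term of the fit of all 18 libraries, for 3 cathepsins. The fold change in Hip minus that in PFC was 2.51 for Ctsa, -1.22 for Ctsb and -1.76 for Ctsl. That of Ctsl missed the threshold with the stricter gate (-1.32), with the length and GC trend removed (-1.52) and without GF mouse 5, GF mouse 7 or SPF mouse 32, and that of Ctsb without SPF mouse 30 (-1.03). The SPF libraries of PFC were shallower than the other libraries compared here. Thinning matched the UMIs per nucleus and not the UMIs of a sum, so the part of depth in these differences was not tested.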

How the results depend on the processing

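With the trend on gene length and GC content removed, the members called between GF and SPF mice in Hip fell from 5 to 3 in microglia and from 20 to 11 over the 6 types, and those between GF and CGF mice from 6 to 3 and from 25 to 13. The shares of all genes called in this setting are not given here, so these falls are not read as particular to cathepsins. The cause was not tested. Between CGF and SPF mice over the 6 types, 2 pairs were called in Hip by DESeq2 and 2 without the filter, and 1 in PFC without the filter, where edgeR with the filter called 0. The shares of all pairs are not given for these settings either. Of all other settings that left out no mouse, 113 counts stayed within 1.5 times the reported one.

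When mice were left out one by one, the calls in microglia ranged from 5 to 6 (Hip) and 4 to 6 (PFC) for GF against SPF, from 4 to 6 and 6 to 6 for GF against CGF, and from 0 to 0 in both regions for CGF against SPF mice. Over the 6 types they ranged from 14 to 22 and 17 to 22, from 18 to 25 and 18 to 21, and from 0 to 1 (without SPF mouse 31) and 0 to 3 (without CGF mouse 18). The region comparison gave 4 to 4 calls, its interaction 2 to 3, and the members raised in microglia 7 to 8 in each region. The uncalled Ctsc of Hip microglia ranged from -0.07 (without SPF mouse 32) to 0.32, and the uncalled Ctso from -0.86 to 0.01 (without SPF mouse 31).

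With the mouse as a replicate block, the region fit called 4 members and its interaction 3, as without it. The values were -1.86 for Ctsa, 0.53 for Ctsb, 0.77 for Ctsc and -0.98 for Ctsz between regions, and 2.53 for Ctsa, -1.26 for Ctsb and -1.78 for Ctsl in the interaction, and the block changed none of these calls. The region calls within single groups are given without the block only. Groups hold different mice, so no pairing was possible between them. In PFC microglia, SPF libraries held 148887 to 245964 UMIs, and Ctsd, Ctsf and Ctso did not pass the filter of the group fit. Thinning to the lowest mean UMIs per nucleus did not equalise the UMIs of a sum, since the libraries differed in nuclei (116 to 378). Among the PFC calls it ended that of Ctsc in microglia against CGF mice (1.13, adjusted p = 0.058). Against SPF mice it ended those of Ctsb in PFC astrocytes (0.57, adjusted p = 0.0523) and Ctsf in PFC interneurons (0.72, adjusted p = 0.0743). The p-values between groups measure the spread over 3 mice per group. Those between types use the residual spread of all fitted types over the 9 libraries of a region, after the library block. Group was not a term of that fit, so group differences that varied by type are part of this spread.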
